A study of Macaca mulatta with 7 samples.

Results

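The neurotransmitter that a spinal neuron releases can be read from a small set of genes, and 7 of them were followed here through nuclei of the rhesus monkey spinal cord, chosen by symbol from 28966 gene names in the count tables. SLC17A6, SLC17A7 and SLC17A8 encode the vesicular glutamate transporters, which load glutamate into synaptic vesicles and mark excitatory neurons. GAD1 and GAD2 encode the glutamate decarboxylases that make GABA, SLC32A1 the vesicular transporter that loads both GABA and glycine, and SLC6A5 the plasma membrane transporter that takes glycine back into glycinergic terminals. In the spinal cord SLC17A6 is the main vesicular glutamate transporter of local neurons, while many inhibitory interneurons carry GABA and glycine together. The 3 glutamate transporters are called the glutamate set below and the other 4 genes the inhibitory set.

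The positions of the genes in the Mmul_10 assembly were taken from its annotation. SLC17A6 (ENSMMUG00000020368, chr14:43185523-43227407, minus strand) and SLC6A5 (ENSMMUG00000009053, chr14:44920022-44971926, minus strand) lie on the same chromosome. GAD1 (ENSMMUG00000015198) spans chr12:57960027-58006388 and GAD2 (ENSMMUG00000012233) chr9:27214469-27303983, both on the plus strand. SLC32A1 (ENSMMUG00000003376, chr10:73985887-73990741, plus strand) is a short gene of 2 exons. SLC17A7 (ENSMMUG00000014800) spans chr19:49379582-49392005 on the minus strand and SLC17A8 (ENSMMUG00000017646) chr11:100187462-100252736 on the plus strand. The spans differ and the tables count UMIs per gene, so levels of single genes were compared across libraries and sub-clusters, and the summed levels of the sets, which type the sub-clusters, carry no correction for length.

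Single-nucleus RNA sequencing was performed on 7 libraries from adult female Macaca mulatta, 1 library per group. Intact, untreated cord was taken at age 5 years from the cervical, thoracic and lumbar segments of 1 uninjured monkey. Lumbar cord spared by a complete thoracic injury, far below the lesion, was taken from 1 monkey for each time, at 7 and 14 days post injury (dpi, age 7 years), 30 dpi (age 6 years) and 6 months post injury (mpi, age 6 years). The balance of excitatory and inhibitory neurons in this spared cord was 1 of the subjects of a study of cell responses by region. With 1 library per group, time point, animal, age and library preparation cannot be told apart, and no test between groups was possible. All intervals are 95% intervals that cover counting error only, and the 4 injured libraries are all set against the same intact lumbar library, so those comparisons share a control.

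The libraries held 6134 to 12015 barcodes and 45079131 to 150987900 unique molecular identifiers (UMIs, each standing for 1 counted RNA molecule), with the 6 mpi library the smallest on both counts. Pairs of libraries shared 12 to 36 barcodes. Clustering, done without the 7 genes, placed 9906 of 63726 filtered nuclei in neuron-like clusters. There were 1202 neuron-like nuclei in intact cervical, 798 in intact thoracic, 2833 in intact lumbar, 1201 in 7 dpi, 1744 in 14 dpi, 1276 in 30 dpi and 852 in 6 mpi cord. Their median depth ran from 21490 UMIs at 6 mpi to 39125.5 at 30 dpi. Levels are given as CPM, the UMIs of a gene per 1000000 UMIs counted in all nuclei of that class and library together. The 8 neuron markers summed to 4129 to 4379 CPM in these nuclei of the 3 intact and to 3635 to 3981 of the 4 injured libraries, against 159 to 414 for the oligodendrocyte markers, 136 to 178 for the astrocyte markers and 47.1 to 90.3 for the microglia markers. The 6 markers of oligodendrocyte precursor cells (OPCs) summed to 1299 to 1592, and PCDH15 and LHFPL3 of that list are also expressed by neurons. PDGFRA, another gene of that list, was at 142 to 161 CPM in these nuclei, and the ependymal markers summed to 204 to 253. Of the neuron-like nuclei, 853 lay in sub-clusters led by glial genes, 5.91% to 13.2% by library, and their part in the results was assessed by leaving them out.

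GAD2 was lower in the injured lumbar cord at every time than in any intact segment. Its level was 93.4 CPM (90.8 to 96.1) in intact cervical, 118 (114 to 122) in intact thoracic and 114 (112 to 117) in intact lumbar neuron-like nuclei. It was 71.5 (68.8 to 74.2), 65.5 (63.5 to 67.6), 79.7 (77.4 to 81.9) and 53.4 (50.5 to 56.4) at 7, 14 and 30 dpi and 6 mpi. All 4 injured libraries lay below all 3 intact ones, and the only neighbours in the order whose intervals overlapped were intact lumbar and intact thoracic cord. GAD2 encodes the decarboxylase found mostly at axon terminals, where it supplies GABA for vesicles. The log2 ratio of its level to intact lumbar cord was -0.68 (-0.74 to -0.62), -0.80 (-0.86 to -0.75), -0.52 (-0.57 to -0.47) and -1.10 (-1.18 to -1.01) at 7, 14 and 30 dpi and 6 mpi. Of the 5 members with a mean level of at least 5 CPM, 1 lay below the intact range in all 4 injured libraries, beside 11.7% of 11255 genes tested in the same way. None of the 5 lay above the intact range in all 4 (8.54% of genes), and 20.2% of genes lay outside it in either direction, so a gene that separates the 4 injured from the 3 intact libraries was not rare in these data. The summed neuron markers, given above, also lay below the intact range in all 4 injured libraries, and their part in the GAD2 difference was not tested.

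A stricter rule asked for a level at least 2-fold from intact lumbar cord and outside the range of the 3 intact libraries. By it 1 of the 5 tested members, GAD2, was past the rule at 6 mpi, where 2.79% of the 11255 genes were. None of the 5 was past it at 7 dpi (1.96% of genes), 14 dpi (1.75%) or 30 dpi (1.59%). SLC17A8, under the filter on low values, would have been past it at 7 and 14 dpi, with log2 ratios of -1.24 and -1.17, beside 8.33% and 7.58% of 25904 genes when no filter is set. Without the 1 intact lumbar nucleus that held 30 of the 202 SLC17A8 UMIs, the lumbar level was 1.84 CPM, and the 14 dpi level of 0.960 was then less than 2-fold lower. The median log2 ratio of the 5 members was -0.17, -0.18, -0.24 and -0.45 at the 4 times in order, beside 0.04, -0.05, -0.03 and 0.05 over all genes tested.

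GAD1, which encodes the decarboxylase spread through the cell body, did not separate the groups. Its level was 63.3 CPM (61.1 to 65.5) in intact cervical, 84.3 (81.0 to 87.7) in thoracic and 77.6 (75.8 to 79.4) in lumbar cord. After injury it was 75.3 (72.6 to 78.2), 68.4 (66.4 to 70.5), 59.7 (57.8 to 61.7) and 54.6 (51.6 to 57.7) at 7, 14 and 30 dpi and 6 mpi. The values at 7 and 14 dpi lay within the intact range, while those at 30 dpi and 6 mpi lay below it. Intervals overlapped between intact lumbar cord and 7 dpi and between intact cervical cord and 30 dpi. The log2 ratio to intact lumbar cord was -0.04, -0.18, -0.38 and -0.51 from 7 dpi to 6 mpi. The number of GAD2 UMIs per GAD1 UMI, a ratio within a library that no scaling to depth can move, was 1.48, 1.40 and 1.47 in the 3 intact segments. It was 0.949 (0.900 to 1.00), 0.957 (0.917 to 1.00), 1.33 (1.28 to 1.39) and 0.978 (0.904 to 1.06) at 7, 14 and 30 dpi and 6 mpi. All 4 injured values were below the 3 intact ones, although the 30 dpi interval overlapped that of intact thoracic cord (1.33 to 1.48).

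SLC6A5, the glycine transporter gene, was highest in intact lumbar cord, at 73.9 CPM (72.2 to 75.7), with 65.0 (62.8 to 67.2) in cervical and 52.6 (50.02 to 55.3) in thoracic cord. It was 63.9 (61.4 to 66.5), 52.4 (50.7 to 54.3), 62.6 (60.6 to 64.7) and 54.2 (51.2 to 57.2) at 7, 14 and 30 dpi and 6 mpi. All 4 injured values lay below intact lumbar cord, and 3 of them stood within the range of the intact segments, with 14 dpi level with intact thoracic cord. The order fell into 3 groups of overlapping intervals, made up of 14 dpi with thoracic and 6 mpi, of 30 dpi with 7 dpi and cervical, and of intact lumbar alone. The log2 ratio to intact lumbar cord was -0.21, -0.49, -0.24 and -0.45 in order of time, and that at 7 dpi was 0.0024 against the mean of the 3 intact segments.

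SLC32A1, whose product fills inhibitory vesicles, followed no single direction after injury. It was counted at 6.24 CPM (5.57 to 6.97) in intact cervical, 4.43 (3.70 to 5.26) in thoracic and 6.13 (5.64 to 6.65) in lumbar cord. The injured values were 8.32 (7.42 to 9.29), 5.57 (4.99 to 6.19), 7.56 (6.88 to 8.29) and 4.80 (3.95 to 5.78) at 7, 14 and 30 dpi and 6 mpi. The values at 7 and 30 dpi lay above every intact library, with log2 ratios to intact lumbar cord of 0.44 and 0.30, and those at 14 dpi and 6 mpi lay within the intact range, with -0.14 and -0.35. Every pair of neighbours in its order of levels had overlapping intervals.

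SLC17A6, the vesicular glutamate transporter of most excitatory spinal neurons, was 50.9 CPM (48.9 to 52.9) in intact cervical, 41.3 (39.0 to 43.7) in thoracic and 50.7 (49.2 to 52.1) in lumbar cord. It was 44.9 (42.8 to 47.1), 49.8 (48.1 to 51.6), 53.0 (51.1 to 54.9) and 58.9 (55.8 to 62.1) at 7, 14 and 30 dpi and 6 mpi. The level at 6 mpi was the highest and overlapped no other, and intact thoracic cord was the lowest and overlapped only 7 dpi. The 14 dpi, intact lumbar, intact cervical and 30 dpi values had overlapping neighbours. The log2 ratio to intact lumbar cord was -0.17, -0.03, 0.06 and 0.22 (0.13 to 0.30) at 7, 14 and 30 dpi and 6 mpi.

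**Figure D1:**
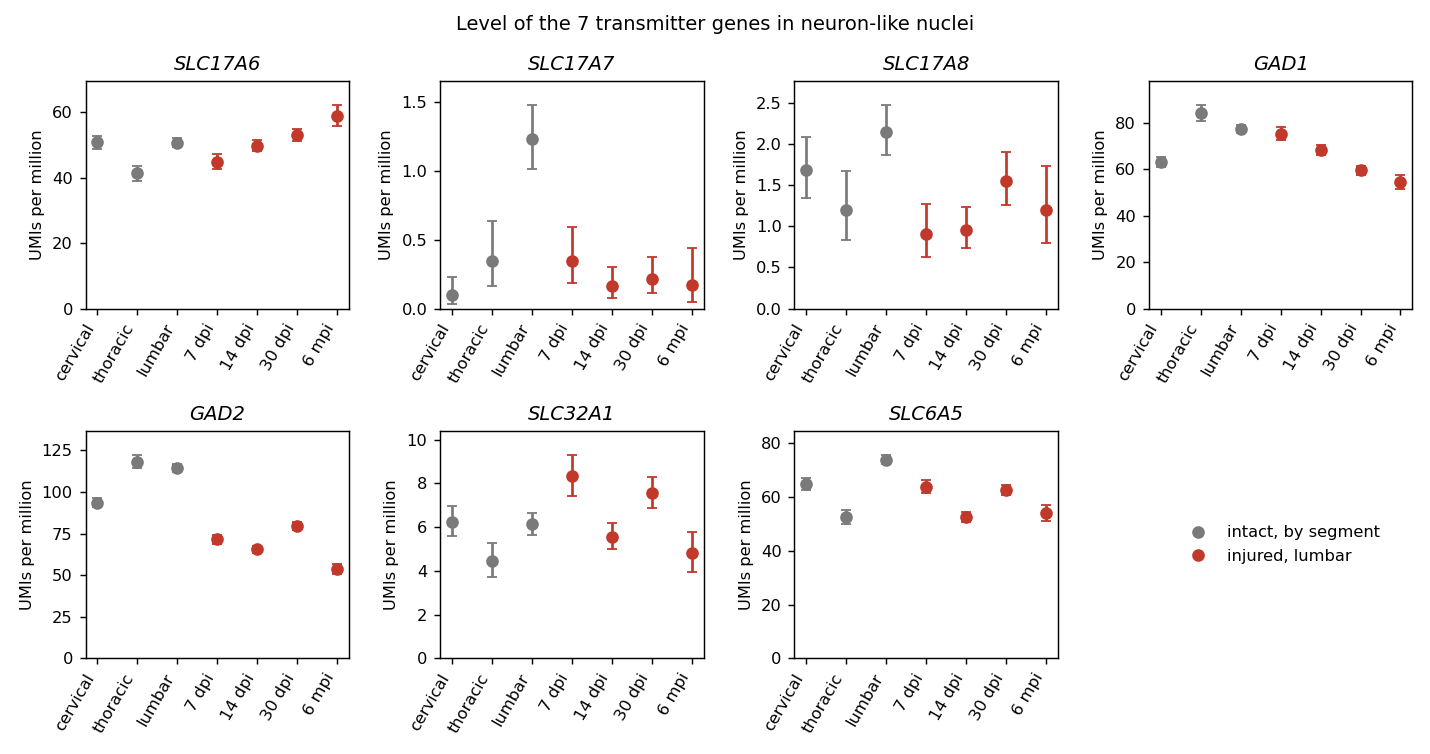
Level of each of the 7 genes in neuron-like nuclei, in CPM (y axes, each from 0), by library (x axes), with intact segments in grey and injured lumbar cord in red; points are 1 library each and bars are 95% Poisson intervals. For GAD2 the 4 red points, 53.4 to 79.7, lie under the 3 grey points, 93.4 to 118, and for the other genes the colours overlap in height.

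The remaining vesicular glutamate transporters were rare in these neurons. SLC17A7, which is typical of cortical and sensory projection neurons, had 5, 10 and 115 UMIs in the cervical, thoracic and lumbar segments and 13, 10, 13 and 4 UMIs from 7 dpi to 6 mpi. The high intact lumbar count came from 1 nucleus that held 89 of the 115 UMIs, and without it the lumbar level was 0.278 CPM in place of 1.23, within the 0.0991 to 0.348 of the other 6 libraries. That nucleus held 93483 UMIs and lay in a sub-cluster led by CREB5, EGFLAM and SLC5A7, the last of which encodes the choline transporter of cholinergic neurons. SLC17A8, known from small groups of neurons that release glutamate beside another transmitter, had 85, 35 and 202 UMIs in the intact segments and 34, 59, 93 and 28 in the injured libraries in order of time. Its levels of 1.68, 1.20 and 2.15 CPM in the intact segments and 0.909, 0.960, 1.55 and 1.20 after injury overlapped between the groups. Single nuclei held 33 of the cervical and 30 of the lumbar SLC17A8 UMIs, and without them those levels were 1.03 and 1.84.

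A list of 22 other genes of transmitter supply, uptake and breakdown was counted beside the members. It was matched by symbol for 21 genes. Of the 17 that passed the same filter on low values, 6 lay below the intact range in all 4 injured libraries and 1 above it, beside the 11.7% and 8.54% of all genes given above, and none was past the 2-fold rule at any time. Among the lower genes ALDH5A1, which completes the breakdown of GABA, was at 28.0 to 28.5 CPM in the intact and 24.5 to 27.3 in the injured libraries. On the glutamate side SLC1A1, a neuronal glutamate transporter that also supplies substrate for GABA synthesis, was at 101 to 109 in intact and 78.7 to 86.1 in injured libraries, and GOT1, an aspartate aminotransferase of the cytosol, at 73.2 to 76.1 and 61.4 to 70.6. Also lower were a pair of cholinergic genes, CHAT for acetylcholine synthesis (4.91 to 7.87 intact, 2.71 to 4.47 injured, so that it passed the filter of 5 CPM only through the intact cervical and thoracic segments, where it was high) and SLC5A7 for choline uptake (13.3 to 22.6 intact, 7.64 to 12.3 injured). SHMT1, which makes glycine from serine, was the gene above the intact range, at 8.66 to 10.3 CPM in intact and 10.8 to 15.9 in injured libraries. ABAT, the GABA transaminase, overlapped between the groups at 169 to 186 and 152 to 174. The median log2 ratio of the list was -0.08, -0.16, -0.17 and 0.10 at the 4 times.

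The glutamate and inhibitory sets were high in different sub-clusters for most neuron-like nuclei, and both were present in others. The nuclei were re-clustered without the 7 genes or the 22 others. Each sub-cluster was then typed as glutamate or inhibitory where the summed level of that set was more than 4 times that of the other. The 3 sub-clusters led by glial genes and 2 with each set under 50 CPM were kept apart from this rule. In 13 sub-clusters with 3443 nuclei the glutamate set summed to 68.2 to 172 CPM and the inhibitory set to 1.41 to 17.9. In 16 sub-clusters with 3331 nuclei the inhibitory set summed to 186 to 1060 and the glutamate set to 1.09 to 22.3. Another 3 sub-clusters with 2189 nuclei, FOXP2 and NFIB among their leading genes, held both sets, at 52.3 to 61.7 for the glutamate and 167 to 183 for the inhibitory set. Of their nuclei, 1.43% to 3.35% by sub-cluster held UMIs of both sets at a fixed depth of 5000 UMIs. At this depth nuclei that express both sets can lack a UMI of either. In the glutamate and inhibitory sub-clusters the same share was 0% to 5.0%. The mixed sub-clusters thus held both sets as a sum, and whether their single nuclei express both was not tested. A further 2 sub-clusters, with 90 nuclei, were led by SPNS3 and CREB5. They stayed under 50 CPM for each set, a limit chosen after their values were seen. Without this limit the one led by CREB5, at 33.7 for the glutamate and 8.17 for the inhibitory set, would have been typed glutamate. The 3 sub-clusters led by glial genes, with 853 nuclei, also held both sets, at 44.3 to 51.6 for the glutamate and 186 to 204 for the inhibitory set.

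Within the inhibitory sub-clusters the 4 genes were combined in different ways. The sub-cluster led by NCKAP5 had the highest GAD2 and GAD1 levels, at 467 and 450 CPM. Those led by NXPH2 and ATP8B4 had GAD2 at 314 and 233 and GAD1 at 275 and 219 with SLC6A5 at only 2.15 and 2.05. The converse was seen in a sub-cluster of 18 nuclei led by CHRNA7, where SLC6A5 reached its highest level, 299 CPM, SLC32A1 was at 5.76, GAD1 at 46.1 and GAD2 without a UMI, which allows a level of up to 2.47 CPM. The sub-clusters led by TFAP2B and by RORB and SDK1 carried both, with SLC6A5 at 186 and 166 and GAD2 at 175 and 211. These sub-clusters were picked from the table of all sub-clusters after their values were seen.

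**Figure D2:**
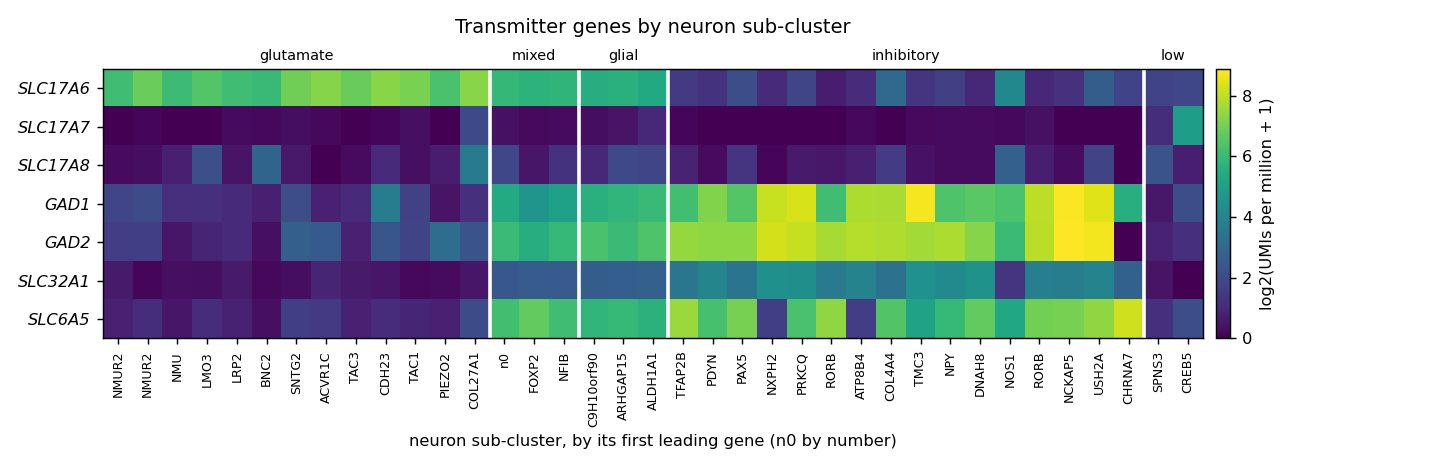
Level of the 7 genes (y axis) in the neuron sub-clusters (x axis, each named by its first leading gene, 1 by its number n0), as colour on a log2(CPM + 1) scale, with white lines between the glutamate, mixed, glial, inhibitory and low groups. SLC17A6 is bright in the 13 glutamate sub-clusters, where the inhibitory genes are mostly dark, and the inhibitory genes are mostly bright in the 16 inhibitory ones. Exceptions in these 16 include SLC6A5 in the sub-clusters led by NXPH2 and ATP8B4, GAD2 in that led by CHRNA7, and SLC17A6 above SLC32A1 in that led by NOS1.

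The lower GAD2 level after injury was also present in the inhibitory sub-clusters as a group, a level into which the mix of these sub-clusters enters. In these nuclei GAD2 was at 231 to 257 CPM in the 3 intact libraries, with 250 in lumbar cord, and at 169, 154, 176 and 137 from 7 dpi to 6 mpi. The log2 ratio to intact lumbar cord was -0.56 (-0.64 to -0.49), -0.70 (-0.76 to -0.64), -0.50 (-0.56 to -0.44) and -0.87 (-0.98 to -0.77). GAD1 in the same nuclei was at 175 to 189 in intact cord and at 208, 177, 148 and 152 after injury, above the intact range at 7 dpi, within it at 14 dpi and below it at 30 dpi and 6 mpi. SLC32A1 stood at 8.96 to 14.4 in intact and at 18.8, 13.3, 16.9 and 11.98 in injured cord, and SLC6A5 at 87.5 to 113 and at 97.3, 79.0, 92.5 and 104, which left 1 injured value of SLC6A5, at 14 dpi, outside the intact range. The 4 inhibitory genes thus differed in direction within the same nuclei. The GAD2 to GAD1 UMI ratio was 1.32 to 1.42 in the intact inhibitory sub-clusters and 0.814, 0.867, 1.19 and 0.898 after injury. In the mixed sub-clusters GAD2 was at 66.4, 76.0 and 58.9 CPM in intact cervical, thoracic and lumbar cord. It was at 47.7, 47.4, 58.9 and 37.7 there from 7 dpi to 6 mpi, with 30 dpi level with intact lumbar cord.

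The sub-clusters could be followed one at a time where at least 10 nuclei were present in both libraries. GAD2 was lower than in intact lumbar cord in 13 of 14 inhibitory sub-clusters at 7 dpi, 14 of 14 at 14 dpi, 13 of 14 at 30 dpi and 11 of 13 at 6 mpi. The interval of the ratio lay below 1 in 11, 13, 10 and 9 of them, and above 1 in 1 sub-cluster, at 30 dpi. For GAD1 the numbers of lower sub-clusters were 4, 7, 14 and 9, with the interval below 1 in 1, 3, 5 and 1 and above 1 in 6, 3, 0 and 1. The sub-clusters of a library share 1 animal and 1 preparation and are not replicates of the time point. These counts were not made over all genes, so how usual they are in these libraries was not tested. In the glutamate sub-clusters SLC17A6 was at 87.4 to 118 CPM in intact and 101, 100, 116 and 119 in injured libraries, with log2 ratios of -0.23, -0.23, -0.03 and 0.01, and only the 6 mpi value of 119, hardly above intact lumbar cord at 118, lay outside the intact range.

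For detection by nucleus, every nucleus was thinned to 5000 UMIs. This kept 9472 neuron-like nuclei and dropped 175, 114 and 69 in intact cervical, thoracic and lumbar and 16, 36, 8 and 16 in the injured libraries. GAD2 was detected in 25.7%, 30.7% and 31.6% of the intact nuclei, in the order cervical, thoracic and lumbar, and in 22.4%, 21.8%, 24.6% and 19.5% from 7 dpi to 6 mpi. The difference from intact lumbar cord was -9.22 percentage points (-12.1 to -6.23), -9.75 (-12.3 to -7.10), -6.98 (-9.87 to -3.997) and -12.1 (-15.2 to -8.79) in order of time. At this depth the share of nuclei with a GAD2 UMI was lower in every injured library than in any intact one. The 30 dpi share of 24.6% was close to the 25.7% of intact cervical cord. Without thinning, GAD2 was detected in 37.3% to 49.8% of nuclei by library. The highest of these shares was that of 30 dpi, the library with the deepest neuron-like nuclei, so this order did not hold there.

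The other members moved less in detection. GAD1 was detected in 21.2%, 22.2% and 24.0% of intact nuclei and in 22.9%, 22.3%, 21.8% and 19.98% after injury, with the interval of the difference from intact lumbar cord below 0 at 6 mpi, at -4.05 points (-7.09 to -0.80). SLC17A6 was detected in 20.5%, 17.1% and 19.5% of intact and 17.6%, 18.4%, 21.3% and 22.8% of injured nuclei, with a difference of 3.35 points (0.23 to 6.64) at 6 mpi that was -0.19 points when nuclei were thinned to 1000 UMIs. SLC6A5 was found in 16.2%, 13.9% and 18.6% and then 18.1%, 14.1%, 17.6% and 14.1%, with intervals of the difference below 0 at 14 dpi (-4.51 points, -6.67 to -2.28) and 6 mpi (-4.45, -7.10 to -1.56). SLC32A1 was found in 2.78% to 3.70% of intact and 2.75% to 4.26% of injured nuclei. SLC17A8 was found in 0.473% to 0.974% of the nuclei of a library and SLC17A7 in 4 nuclei of the 9472. Without thinning, the shares over all neuron-like nuclei were 42.3% for SLC17A6, 42.8% for GAD1, 45.5% for GAD2, 33.2% for SLC6A5, 16.1% for SLC32A1, 2.69% for SLC17A8 and 0.586% for SLC17A7.

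Oligodendrocyte-like nuclei, which should lack these genes, gave the background of free RNA. At 5000 UMIs, where the median depth before thinning was 7227 to 10044 UMIs by library against 22042 to 39360 for the neuron-like nuclei, 0.611% held a GAD1, 0.516% a SLC17A6, 0.482% a GAD2, 0.326% a SLC6A5, 0.129% a SLC32A1, 0.0883% a SLC17A7 and 0.0272% a SLC17A8 UMI. In microglia-like nuclei the 7 shares were at most 0.670%. These shares are over all libraries together. By library they reached 1.17% (SLC17A6) in oligodendrocyte-like nuclei. In microglia-like nuclei they reached 1.19% (SLC6A5) in the 6 libraries with enough of them. The share of SLC17A7 in neuron-like nuclei was at this background and is not read as expression.

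Genes of the inhibitory set were found together in nuclei, and SLC17A6 apart from them. Among nuclei with a GAD1 UMI, 46.1% to 73.0% by library also held GAD2, against 12.9% to 21.5% of nuclei without GAD1. Nuclei with SLC32A1 held GAD1 in 36.8% to 60.5%. All 12 ordered pairs within the inhibitory set had the partner more often in nuclei with the first gene than in nuclei without it in 7 of 7 libraries. Of nuclei with SLC17A6, at most 4.33% by library held GAD1, 5.29% GAD2 and 1.86% SLC6A5, against 24.7% to 28.9%, 24.8% to 38.3% and 16.6% to 22.6% of nuclei without it. Of 64 nuclei with SLC17A8, 12 held GAD1, 11 GAD2, 6 SLC6A5, 1 SLC32A1 and 8 SLC17A6, numbers too small for a comparison by library. Among nuclei without SLC17A8 the median shares over the libraries were 22.2%, 24.6%, 16.3%, 3.42% and 19.6% in the same order. No partner was thus more frequent in nuclei with SLC17A8 than these medians.

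**Figure D3:**
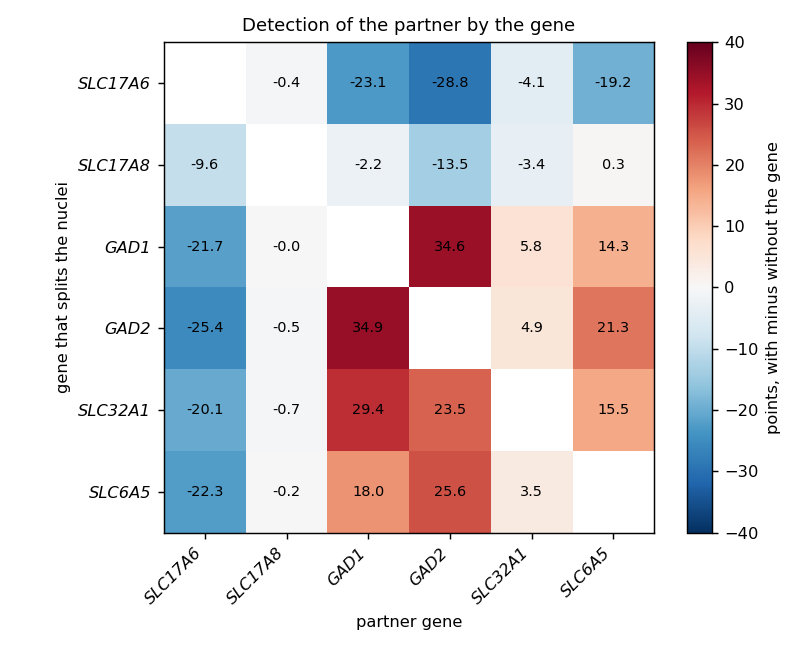
Percentage of neuron-like nuclei with the partner gene (x axis) among nuclei with the gene of the y axis, at 5000 UMIs, as the median of 7 libraries. From it the median of 7 libraries of the percentage among nuclei without that gene was subtracted, in percentage points. SLC17A7 is left out for want of nuclei. The 12 cells that pair inhibitory genes are positive, up to 34.9 points for GAD1 in nuclei with GAD2, and the cells that pair SLC17A6 with an inhibitory gene are negative, down to -28.8 points for GAD2.

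Overlap of the GABA and glycine genes was read from SLC6A5 in nuclei with a UMI of GAD1, GAD2 or SLC32A1. It was found in 31.3%, 28.5% and 33.6% of such nuclei in the intact segments and in 32.0%, 24.7%, 30.3% and 28.5% from 7 dpi to 6 mpi. From the other side, 30.7%, 23.2% and 25.5% of the SLC6A5 nuclei of the intact segments held no GABA gene, against 37.4%, 39.6%, 36.8% and 38.1% after injury. The 4 injured shares were above the 3 intact ones, and GAD2 detection, which enters this share, was lower in the same libraries.

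The nuclei were next sorted by set. At 5000 UMIs a nucleus with UMIs of only 1 set was called glutamate-only or inhibitory-only. Inhibitory-only nuclei made up 66.0% (62.1% to 69.8%) of these single-set nuclei in intact cervical, 70.0% (65.2% to 74.5%) in thoracic and 70.5% (68.3% to 72.6%) in lumbar cord. They made up 70.9% (67.3% to 74.3%), 68.6% (65.5% to 71.5%), 67.6% (64.2% to 70.9%) and 61.2% (56.6% to 65.6%) at 7, 14 and 30 dpi and 6 mpi. The first 3 injured shares lay within or at the edge of the intact range, and the 6 mpi share lay below it. The difference from intact lumbar cord was 0.36 points (-3.75 to 4.32), -1.95 (-5.62 to 1.66), -2.89 (-6.86 to 0.97) and -9.32 (-14.2 to -4.51) at 7, 14 and 30 dpi and 6 mpi. Between the intact segments, cervical cord stood -4.48 points from lumbar cord (-8.84 to -0.25), which sets the scale of differences between segments of 1 uninjured animal. Without thinning the shares were 53.5%, 56.3% and 58.2% in intact and 57.7%, 54.9%, 55.2% and 52.3% in injured cord, and the 6 mpi library was again the lowest. The share depended on depth, and in intact lumbar cord it was 78.9% at 1000 and 65.0% at 10000 UMIs. It is therefore compared between libraries at 1 depth and not read as the fraction of inhibitory neurons. The share rests in part on GAD2 detection, which was lowest at 6 mpi. Sorting whole sub-clusters by type, which does not rest on the UMIs of a single nucleus, gave inhibitory shares of 45.8%, 49.6% and 53.5% in intact and 50.1%, 47.6%, 49.2% and 41.0% in injured cord. Set against intact lumbar cord, this share stood at -3.46 points at 7 dpi, with an interval of -7.68 to 0.77. It stood at -5.97 at 14 dpi (-9.50 to -2.42), and at 30 dpi -4.37 (-8.39 to -0.33). The 6 mpi value was -12.5 (-16.9 to -8.03). The sub-cluster shares at 7, 14 and 30 dpi all lay within the range of the intact segments, 45.8% to 53.5%, and the 6 mpi share lay below it. These are shares of nuclei in the glutamate and inhibitory sub-clusters, without the 3132 nuclei of the mixed, low and glial ones. Over all neuron-like nuclei the inhibitory sub-clusters held 29.6%, 36.5% and 38.1% in intact and 30.4%, 33.4%, 32.0% and 29.3% in injured cord, with 6 mpi level with intact cervical cord.

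Nuclei with UMIs of both sets were few at 5000 UMIs. They were 0.974%, 0.439% and 1.56% of neuron-like nuclei in the intact segments and 1.69%, 1.58%, 1.58% and 1.32% after injury. The share was at most 0.0578% of oligodendrocyte-like and 0.165% of microglia-like nuclei. For a nucleus that already holds a set, a stray UMI of the other set is enough. By library, 0.272% to 1.17% of oligodendrocyte-like nuclei held the glutamate set only and 0.817% to 2.59% the inhibitory set only. The part of free RNA and of doublets in the both-set nuclei was not tested. Without thinning the shares were 8.24%, 5.64% and 9.11% in the intact segments and 8.16%, 9.63%, 8.54% and 9.04% after injury. The injured libraries and intact lumbar cord had overlapping intervals throughout. Nuclei with neither set were 35.5% to 42.1% of intact and 36.8% to 42.6% of injured nuclei at this depth, where a nucleus that expresses a gene at a low level can hold no UMI of it.

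**Figure D4:**
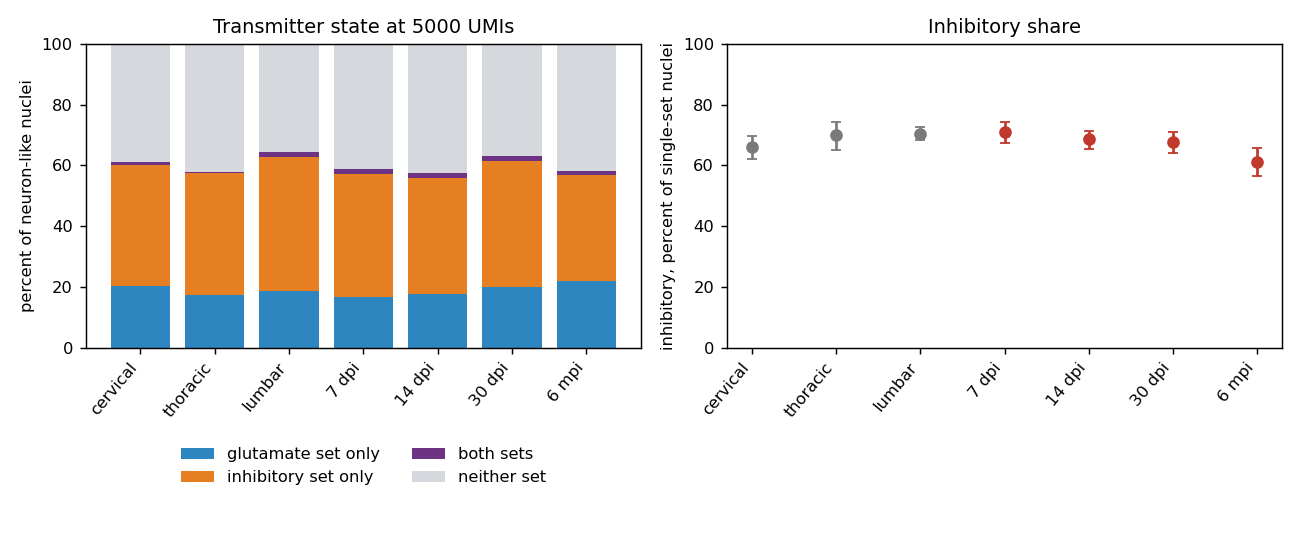
Left, percentage of neuron-like nuclei at 5000 UMIs (y axis) with the glutamate set only, the inhibitory set only, both or neither, as stacked bars by library; right, inhibitory-only nuclei as a percentage of single-set nuclei with 95% exact binomial intervals, intact in grey and injured in red. The 6 mpi point at 61.2% is the lowest of the 7, and both-set nuclei are a thin band of at most 1.69%.

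Transcription factors of spinal neuron lineages, which the sorting did not use, differed between glutamate-only and inhibitory-only nuclei. PAX2, which specifies inhibitory dorsal horn neurons, was detected in a median of 39.7% of inhibitory-only and 0.395% of glutamate-only nuclei over the 7 libraries. GBX1 was found in 17.8% and 0.585%, LHX1 in 14.1% and 0.476%, SALL3 in 11.2% and 0.333% and LHX5 in 4.0% and 0.333%. Each of these was higher in inhibitory-only nuclei in 7 of 7 libraries. LMX1B, a factor of dorsal excitatory neurons, went the other way, in 34.3% of glutamate-only and 2.45% of inhibitory-only nuclei, and so did TLX3, in 2.92% and 0.189%, again in 7 of 7 libraries. At 6 mpi LMX1B was in 22.3% of glutamate-only nuclei, against 34.0% to 40.6% in the other libraries. Several factors known mainly from embryonic or ventral neurons were near the limit of detection. GATA3 was found in 35 of 3860 inhibitory-only nuclei and in 0 of 1775 glutamate-only nuclei, which allows a share with a UMI at this depth of up to 0.169%, a limit on detection and not on expression. EVX1 was detected in 0 of both, with a limit of the same kind of 0.0777% for the inhibitory-only nuclei, and PHOX2A in 1 inhibitory-only nucleus. SIM1, listed as excitatory, was in 20 glutamate-only and 34 inhibitory-only nuclei and did not separate the sets.

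Nuclei with cholinergic genes, which motor neurons among others express, mostly held no UMI of either set at 5000 UMIs. Of 188 neuron-like nuclei with at least 2 of CHAT, SLC18A3 and SLC5A7, 187 reached 5000 UMIs, and 139 of these (74.3%, 58.9% to 85.0% by library) held no UMI of the 7 genes. GAD2 was detected in 23 of them, GAD1 in 16, SLC6A5 in 15 and SLC17A6 in 13. Their median depth before thinning was 62434 UMIs, deeper than the neuron-like nuclei at large, so most of their UMIs were thinned away. Of all neuron-like nuclei, 35.5% to 42.6% by library held neither set at the same depth. The sub-cluster led by NOS1, with 164 nuclei, had SLC5A7 and CHAT among its leading genes. It was typed inhibitory, at 186 CPM for the inhibitory and 22.3 for the glutamate set.

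The genes with patterns most like each member were taken from Pearson correlations across 33 neuron sub-clusters of the intact libraries, on log2 levels, with the value across 31 sub-clusters of the injured libraries beside it. These points share their libraries and the clustering, and the values are descriptions. SLC17A6 was most like NRN1 (0.95 intact, 0.91 injured), CACNA2D1 (0.91, 0.86) and MEIS1 (0.90, 0.90). GAD1 and GAD2 were most like each other (0.97, 0.94), and PAX8 stood among the nearest 3 genes of both (0.94 and 0.94 for GAD1, 0.97 and 0.95 for GAD2). PAX2 was among the nearest of GAD1 (0.95, 0.94) and the nearest of SLC32A1 (0.95, 0.95). SLC30A3, a vesicular zinc transporter gene, was among the nearest of GAD2 (0.97, 0.92), SLC32A1 (0.93, 0.93) and SLC6A5 (0.85, 0.80), for which it led. The nearest gene of SLC17A8 was MEIS2 (0.61, 0.44), and the nearest of SLC17A7, ALDH1A1, went from 0.61 to -0.21, a pattern that rests on few UMIs and does not include the sub-cluster of the nucleus with 89 SLC17A7 UMIs, which held under 50 nuclei.

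Among glial and ependymal-like nuclei, 2 members had a level well above the background of free RNA. In T-cell-like nuclei SLC17A6 was at 4.39 to 8.10 CPM in the 4 libraries with enough of them. It was at 0.252 to 2.14 in oligodendrocyte-like nuclei, and the source of this difference was not tested. GAD1 was counted in OPC-like nuclei, which numbered 690, 1450 and 738 in the intact segments and 371, 235, 344 and 223 in the injured libraries. Its level there was 11.7 CPM (9.04 to 14.9) in intact cervical, 12.3 (10.4 to 14.5) in thoracic and 9.60 (7.03 to 12.8) in lumbar cord, from 65, 141 and 46 UMIs. It was 54.7 (45.6 to 65.1), 33.8 (25.6 to 43.8), 63.3 (55.4 to 71.9) and 40.4 (28.5 to 55.7) at 7, 14 and 30 dpi and 6 mpi, from 127, 57, 233 and 37 UMIs. OPCs divide in the adult cord and give rise to myelinating oligodendrocytes, and they receive synaptic input from neurons. Every injured library was above every intact one with no overlap of intervals. At 30 dpi the interval overlapped that of the neuron-like nuclei of the same library, 59.7 (57.8 to 61.7). The log2 ratio to intact lumbar cord was 2.51 (2.01 to 3.03), 1.82 (1.23 to 2.41), 2.72 (2.26 to 3.21) and 2.07 (1.41 to 2.73) in order of time. GAD1 was thus past the 2-fold rule at all 4 times, beside 9.4%, 6.16%, 7.21% and 10.3% of 10503 genes tested in OPC-like nuclei, and 8.35% of these genes lay above the intact range in all 4 injured libraries.

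The share of OPC-like nuclei with a GAD1 UMI at 5000 UMIs was 4.54%, 5.88% and 3.89% in the intact segments and 17.8%, 15.5%, 23.4% and 17.0% in the injured libraries, of 551, 1020 and 463 and of 242, 181, 312 and 47 nuclei. Thinning left out 139, 430 and 275 intact and 129, 54, 32 and 176 injured nuclei, most of those at 6 mpi. Without thinning the shares were 5.51%, 6.97% and 5.01% and then 22.4%, 18.3%, 35.8% and 12.1%, at median depths of 3704 UMIs at 6 mpi to 8638 at 30 dpi. In oligodendrocyte-like nuclei at 5000 UMIs the share was 0.333% to 0.863% by library. The GAD1 signal of the OPC-like nuclei was not accompanied by the rest of the inhibitory set. GAD2 was at most 1.78 CPM in them, and at most 3 of the 27 to 123 OPC-like nuclei with GAD1 in a library held another inhibitory gene. The neuron markers summed to 577 to 753 CPM in the injured and to 876 to 1062 in the intact OPC-like nuclei. Among the injured libraries 30 dpi had both the highest sum and the highest GAD1 level, and without the OPC-like nuclei that held a UMI of any other member, an alternative chosen after seeing the data, the log2 ratios of GAD1 to intact lumbar cord were 2.67, 1.998, 2.89 and 2.26 in order of time.

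SLC17A8 was the other of these 2 members, found in astrocyte-like and ependymal-like nuclei. In the 910, 1704 and 978 astrocyte-like nuclei of the intact cord it was at 12.2, 15.5 and 4.84 CPM in the cervical, thoracic and lumbar segments, from 104, 292 and 38 UMIs, and in ependymal-like nuclei at 4.18, 18.1 and 10.8. The injured libraries held 98, 254, 147 and 115 astrocyte-like nuclei and gave 2, 1, 3 and 1 SLC17A8 UMIs, for levels of 2.52, 0.569, 2.01 and 1.61. All 4 were below the 3 intact values, beside 6.93% of 11222 genes in these nuclei, although SLC17A8 passed the filter of 5 CPM only through the intact cervical and thoracic segments, where it was high, and the interval of the ratio to intact lumbar cord lay below 1 only at 14 dpi (log2 -3.09, -8.43 to -0.52). With so few UMIs a difference at the other 3 times was not detectable at this depth.

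**Figure D5:**
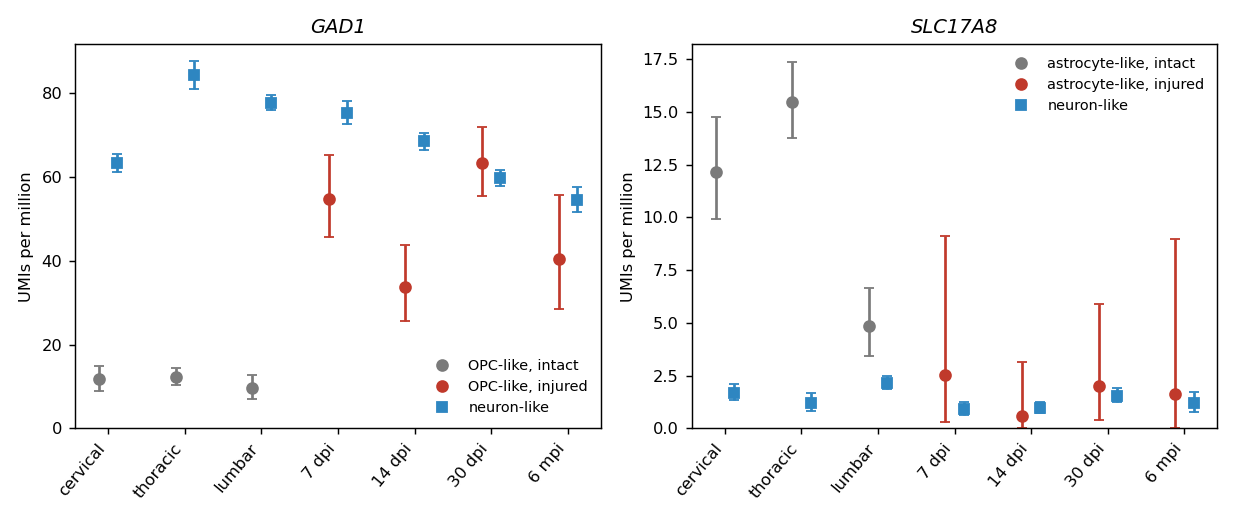
Left, GAD1 level in OPC-like (circles) and neuron-like (blue squares) nuclei; right, SLC17A8 level in astrocyte-like (circles) and neuron-like (blue squares) nuclei; y axes in CPM, x axes by library, intact circles grey and injured circles red, bars 95% Poisson intervals. GAD1 in OPC-like nuclei is 9.60 to 12.3 in intact and 33.8 to 63.3 in injured libraries, and the bars of SLC17A8 in injured astrocyte-like nuclei are wide because they rest on 1 to 3 UMIs.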

How the data were processed

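Nuclei were isolated from spinal cord and sequenced with 10x version 3 chemistry by the authors, who deposited raw UMI counts per gene and barcode for each library. The submitters' processing notes name Cell Ranger 6.0.0 and the build Mmul_10, and whether intronic reads were counted is not given in the sources used here. The 35432 gene identifiers gave 28966 names. Barcodes with at least 500 genes and 1000 UMIs, at most 10% mitochondrial and 5% hemoglobin UMIs were kept, and the 5% with the highest Scrublet score per library were removed. Scanpy 1.11.5 (Python 3.11.15) clustered the nuclei on 2000 variable genes without the 7 genes and their companion list, with 30 principal components, 20 neighbours and Leiden (leidenalg 0.10.2) resolution 1, and classes were named from marker lists. Counts were summed per library and class, as CPM. Intervals are exact Poisson for levels, exact binomial (Clopper-Pearson) for shares, conditional binomial for ratios and Newcombe for differences of shares. Detection used nuclei thinned to 5000 UMIs. Genes with a mean of at least 5 CPM were tested against the 2-fold rule, and edgeR 4.0.16 gave TMM factors as an alternative only. Of these steps, the 2-fold rule and the Clopper-Pearson intervals were tested on simulated data. No p-value was computed, since each group is 1 library. The genes named are the 7 members, the companion list, the lineage factors and the 3 genes most like each member, and the members and lists were chosen with earlier results of these data known. Some genes of these lists are not reported here.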

Additional observations from a re-analysis of the deposited data

How the results depend on the processing

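No paired analysis was possible because each group has 1 library. Alternatives covered doublet removal, how neuron-like nuclei were found, resolution 2, nuclei with markers of another class, sub-clusters led by glial genes (chosen after seeing the data), TMM scaling, a mean over nuclei, the mean of the 3 intact libraries as reference, thinning to 1000 or 10000 UMIs, and at least 2 UMIs for detection. The GAD2 log2 ratio ran from -0.74 to -0.60, -0.83 to -0.73, -0.54 to -0.45 and -1.20 to -1.02 at 7, 14 and 30 dpi and 6 mpi. The inhibitory share difference at 6 mpi ran from -10.7 to -6.02 points over these alternatives and a call by the set with more UMIs, which do not include the unthinned shares and the sub-cluster shares of the report, and all 40 alternative values of this difference over the 4 times moved by less than the counting interval. In the opposite direction to the value reported were the SLC17A6 detection difference at 6 mpi at 1000 UMIs (-0.19 in place of 3.35 points) and the SLC6A5 log2 ratio at 7 dpi against the mean of the 3 intact libraries (0.0024 in place of -0.21). The both-set difference at 10000 UMIs was -1.07 points at 30 dpi and 1.27 at 6 mpi. With no filter on low values 1 member, SLC17A8, was past the 2-fold rule at 7 dpi and 1, again SLC17A8, at 14 dpi, in place of 0 (the latter not without 1 intact lumbar nucleus, at 1.84 against 0.960 CPM), beside 8.33% and 7.58% of 25904 genes at this setting. TMM moved the median of all genes by -0.10 on the log2 scale at 6 mpi. The causes were not tested. The GAD1 log2 ratio in OPC-like nuclei ran over 2.38 to 2.67, 1.74 to 1.998, 2.67 to 2.89 and 2.06 to 2.26 in order of time over 4 alternatives chosen after seeing the data. Of the remaining log2 ratios in neuron-like nuclei 193 moved by less than their interval and 30 by more, and of the detection differences 211 and 12. With the mean of the 3 intact libraries as reference alone, 13 of these log2 ratios moved by more than their interval and 14 by less. Depth limits SLC17A7, SLC17A8 and the 47 OPC-like nuclei at 6 mpi that reached 5000 UMIs.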
